A study of Mus musculus with 6 samples.

Results

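A set of 9 genes that remove or build mitochondria was examined in mouse lung: Pink1, Bnip3, Bnip3l and Fundc1, which act in mitophagy, and Ppargc1a, Ppargc1b, Nrf1, Tfam and Polg, which act in mitochondrial biogenesis. They were chosen by symbol, for their function, with earlier results of these data known. All 9 were found among the 55573 genes of the deposited table, and all 9 had enough counts to be tested, as did 16965 genes in all. None of the 9 changed between smoke-exposed lungs with and without SS-31, a mitochondria-targeted antioxidant peptide: by edgeR's quasi-likelihood test the lowest adjusted p was 0.474, for Nrf1. The largest difference was a log2 fold change of 0.34, for Ppargc1a.

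Mitophagy is the delivery of damaged or surplus mitochondria to lysosomes by autophagy. On mitochondria that have lost their membrane potential the kinase PINK1 accumulates and phosphorylates ubiquitin, which marks them for removal, while BNIP3, NIX (the product of Bnip3l) and FUNDC1 are outer-membrane receptors that bind LC3-family proteins of the autophagosome directly. Biogenesis runs the other way: the PGC-1 coactivators work with nuclear respiratory factors to raise the transcription of nuclear genes for mitochondrial proteins. Among these proteins are TFAM, which packages mitochondrial DNA and helps to start its transcription, and POLG, the polymerase that copies it.

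The 6 libraries were made from lung total RNA of C57BL/6 mice, wild type and 9 to 10 weeks old. The 3 libraries called CS came from mice that breathed cigarette smoke for 75 min at a time, in 2 sessions a day on 5 days a week, over 4 weeks. The 3 libraries called SS-31H_CS came from mice that had smoke together with SS-31 at 5 mg/kg once a day. The comparison asks what SS-31 does to the lung during smoke exposure, the purpose given in the series title. Smoke was common to both groups, no smoke-free lungs were among the libraries, and the exposure schedule is given for CS alone. The labels do not say that each library came from a separate mouse, so the p-values measure only the spread between these samples, which may be technical. Libraries of a group differed by more than counting noise (chi-square per degree of freedom 7.50 to 45.3 over pairs).

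Total counts ran from 15611925 to 17360052 per library. CS replicate 3 stood apart, at -61.3 on a first principal component that held 46.4% of the variance, with the other 5 libraries between -14.4 and 44.8. Over 13 cell type marker lists, markers of alveolar type 2 cells (22700 to 29500 CPM, summed) and club cells (24800 to 64200 CPM) were abundant in every library, as a lung label requires; CPM are counts relative to the normalised library size, on the usual common scale. Pdpn, an alveolar type 1 marker, was listed at 0 in every library, while the other 7 markers of that list had counts throughout. Summed erythroid, lymphocyte and ciliated cell markers were higher in every SS-31H_CS library than in any CS library, those of alveolar type 1 cells, alveolar macrophages and endothelial cells were lower, and the other 7 lists overlapped. In tissue RNA of this kind, fewer cells of a type and less RNA per cell cannot be told apart.

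The levels of the 9 genes spanned a wide range. The deposited FPKM divide by the joined length of all annotated exons of a gene, so genes can be set beside each other only roughly. That length was 10742 bases for Polg (18 transcripts) and 10282 for Nrf1 (20). It was 2265 for Bnip3 and 2353 for Fundc1 (5 transcripts each). On this scale Pink1 was highest with a mean level of 99.6 over the 6 libraries, above 97.6% of the tested genes. Bnip3l followed at 36.4, Bnip3 at 19.0, Fundc1 at 12.7, Polg at 10.5, Tfam at 6.40 and Nrf1 at 4.43 FPKM. The coactivators Ppargc1a (0.493 FPKM) and Ppargc1b (0.362 FPKM) were at the bottom, above 9.40% and 6.37% of the tested genes. Each gene was separate from its neighbour in this order over all 6 libraries, except Ppargc1a and Ppargc1b, whose values overlapped. Per joined exon length, Pink1 and the 3 receptor genes were thus above all 5 biogenesis genes. In mean CPM, which leaves length out, Polg was at 118 in CS and 108 in SS-31H_CS, and Nrf1 at 47.8 and 43.4. Bnip3 (46.3 and 40.2) and Fundc1 (28.7 and 31.0) were below both, while Pink1 and Bnip3l stayed above. The order of Polg and Nrf1 against Bnip3 and Fundc1 therefore depended on the length used.

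**Figure D1:**
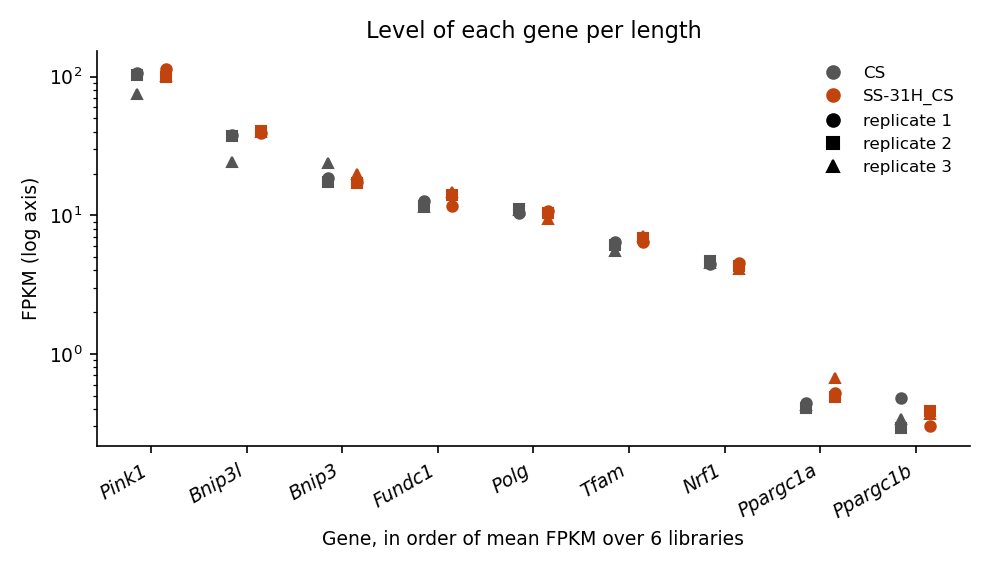
Deposited FPKM (log axis) of the 9 genes in each of the 6 libraries, CS and SS-31H_CS marked apart, ordered by the mean. Pink1 lies at 74.4 to 114 FPKM, and Ppargc1a and Ppargc1b lie together below 1 FPKM.

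Pink1 (ENSMUSG00000028756, chromosome 4, 138313409 to 138326307, GRCm38) was at 291, 272 and 210 CPM in CS replicates 1 to 3 and at 304, 253 and 267 CPM in the SS-31H_CS replicates. CS replicate 3 was the lowest of the 6, and the groups overlapped. The means were 258 ± 42.6 CPM for CS and 275 ± 26.6 for SS-31H_CS (SD, n = 3 per group), a log2 fold change of 0.09 (SE 0.15, 95% interval -0.25 to 0.44, adjusted p = 0.767). Without CS replicate 3 the sign turned, to -0.04. Exons of Gm27646 and Mir7019, which had no counts, overlap 6.7% of the exon length of Pink1.

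Bnip3l, whose product NIX clears mitochondria from maturing red cells (ENSMUSG00000022051, chromosome 14, 66985239 to 67008877), was at 147, 143 and 98.2 CPM in CS and at 152, 149 and 152 CPM in SS-31H_CS. The SS-31H_CS libraries were nearly level and all above the CS libraries, 2 of which were within 10 CPM of them. The means were 130 ± 27.3 and 151 ± 1.74 CPM, a log2 fold change of 0.22 (SE 0.16, interval -0.14 to 0.59, adjusted p = 0.489). Without CS replicate 3 the value was 0.05. Summed erythroid markers, such as the hemoglobin genes, were at 730, 800 and 196 CPM in CS and at 836, 949 and 957 CPM in SS-31H_CS, with 8 of 8 lowest in CS replicate 3. Lymphocyte markers followed the same pattern, at 177, 245 and 55.9 CPM in CS against 248 to 282 in the other group, again with 8 of 8 lowest in CS replicate 3. Ciliated cell markers (7 of 8) and club cell markers (5 of 8) were also mostly lowest in that library, with sums of 357 and 24800 CPM there. The part of these cell types in the Bnip3l and Pink1 values was not tested.

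Bnip3, the hypoxia-inducible receptor (ENSMUSG00000078566, chromosome 7, 138890836 to 138909519), went the other way in the same library. It was at 42.9, 39.3 and 56.7 CPM in CS and at 39.2, 37.0 and 44.5 CPM in SS-31H_CS, so that CS replicate 3 was highest and the groups overlapped. The CS mean was 46.3 ± 9.20 CPM and the SS-31H_CS mean 40.2 ± 3.84 (log2 fold change -0.20, SE 0.15, interval -0.56 to 0.15, adjusted p = 0.510), and the value was -0.04 without CS replicate 3. The balance between these related receptors shows that library plainly. Per length, Bnip3l exceeded Bnip3 by a ratio of 2.02, 2.14 and 1.02 in CS and of 2.27, 2.37 and 2.01 in SS-31H_CS, so the transcripts were level in CS replicate 3 alone. Of the exon length of Bnip3, 22.3% overlaps an opposite-strand gene, Gm45507, which had no counts; the strand setting of the counting is not given in the sources used here.

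**Figure D2:**
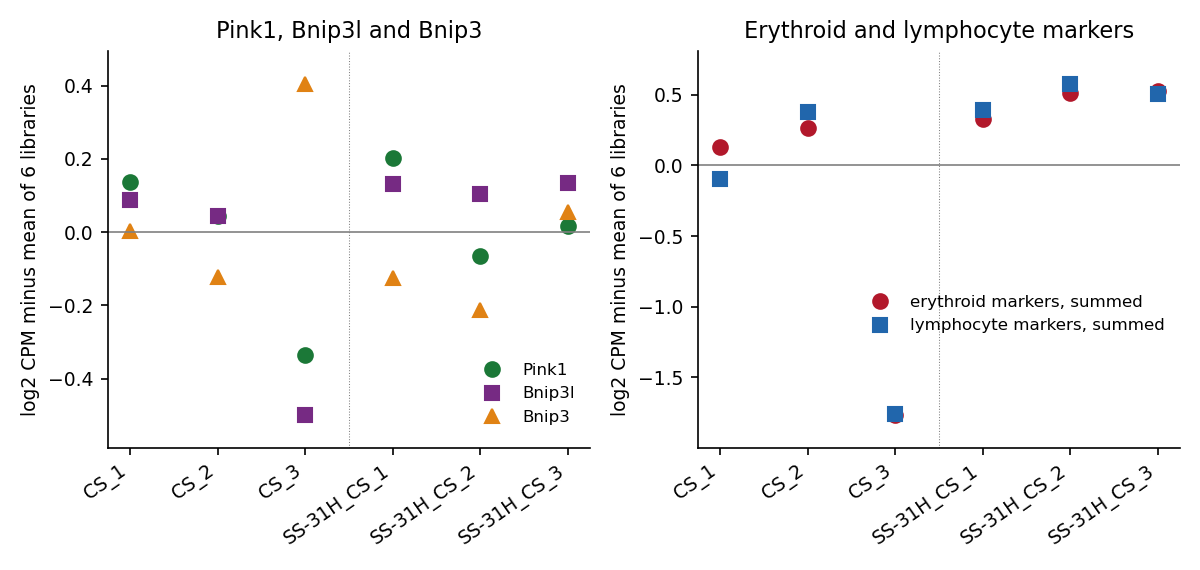
Log2 CPM of Pink1, Bnip3l and Bnip3 (left) and of the summed erythroid and lymphocyte markers (right) in each library, as the difference from the mean of the 6 libraries. In CS replicate 3 Bnip3l is at -0.50 and Pink1 at -0.33, Bnip3 is at 0.40, and both marker sums are at their lowest.

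Fundc1, a receptor controlled by phosphorylation (ENSMUSG00000025040, chromosome X, 17556564 to 17572325), varied little. It was at 30.2, 27.3 and 28.5 CPM in CS and at 27.3, 31.5 and 34.3 CPM in SS-31H_CS, and the groups overlapped. The log2 fold change, 0.11, had an SE of 0.12 (interval -0.16 to 0.39, adjusted p = 0.643). The value was 0.11 again without CS replicate 3, but leaving out SS-31H_CS replicate 3 gave 0.03 and leaving out replicate 1 of that group gave 0.19.

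The promoters of Pink1 and Bnip3 are shown because these mitophagy genes deviated in opposite directions in CS replicate 3. The RefSeq sequences (GRCm38.p6) give the 250 bases before each start site, 5′ to 3′ on the gene's minus strand, at chr4:138326297-138326546 for Pink1 and chr7:138909507-138909756 for Bnip3. Capitals mark matches on either strand to the NRF1 motif GCGCANGCG and to the hypoxia-response cores ACGTG and GCGTG.
Pink1: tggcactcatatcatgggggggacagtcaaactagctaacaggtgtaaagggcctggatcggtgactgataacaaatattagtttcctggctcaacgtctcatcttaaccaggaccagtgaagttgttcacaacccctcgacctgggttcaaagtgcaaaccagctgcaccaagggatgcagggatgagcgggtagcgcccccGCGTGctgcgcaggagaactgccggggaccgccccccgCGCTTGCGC
Bnip3: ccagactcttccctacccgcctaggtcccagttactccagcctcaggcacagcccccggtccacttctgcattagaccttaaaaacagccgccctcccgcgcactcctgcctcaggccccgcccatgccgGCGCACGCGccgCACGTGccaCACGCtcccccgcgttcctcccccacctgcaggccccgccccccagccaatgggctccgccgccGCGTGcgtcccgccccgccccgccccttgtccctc
Windows of 250 bases before to 50 after the start were searched for 7 of the 9 genes and compared with 32851 such windows, of which 6.25% held the NRF1 motif, 19.6% ACGTG and 32.4% GCGTG. Each of these promoters held 1 NRF1 match, beginning at position -9 from the start in Pink1 and at -120 in Bnip3. The windows of the other 5 genes held none. Bnip3 also held a CACGTG palindrome, read as ACGTG on each strand, and 3 matches to GCGTG, of which 1 lies within its NRF1 match. Pink1 held 1 match to GCGTG. These cores were not particular to the pair: Ppargc1a held 1 match to ACGTG, and Nrf1, Tfam and Polg held 2 each to GCGTG. GC content was 71.7% in the Bnip3 window and 58% in that of Pink1, against a median of 52.7% over all windows. A match describes these letters and is no measure of binding. The Fundc1 window held none of the 7 motifs searched, which also included CREB (TGACGT), FOXO (GTAAACA), ERR (TCAAGGTCA) and GABP (CCGGAAGT). That window (chromosome X, 17571958 to 17572257) lies within the annotated gene, which reaches 17572325 on the minus strand. Bases upstream of the annotated gene were therefore not searched for Fundc1.

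Ppargc1a, the gene of the coactivator PGC-1alpha (ENSMUSG00000029167, chromosome 5, 51454250 to 51567726), was at 2.95, 2.69 and 2.96 CPM in CS and at 3.43, 3.06 and 4.41 CPM in SS-31H_CS. All 3 SS-31H_CS libraries lay above the CS libraries, with SS-31H_CS replicate 3 the farthest. The means were 2.87 ± 0.152 and 3.63 ± 0.700 CPM, a log2 fold change of 0.34 (SE 0.24, interval -0.22 to 0.90, adjusted p = 0.485), the largest difference of the 9 genes. It rests on few reads: 50, 47 and 48 counts in CS against 58, 50 and 75 in SS-31H_CS, where counting error alone gives 47 counts an interval of 34.5 to 62.5 and 75 counts one of 59 to 94 (exact Poisson, 95%). Without SS-31H_CS replicate 3 the value was 0.17. PGC-1alpha is abundant in heart and brown fat. Summed cardiac muscle markers were at 696, 231 and 351 CPM in CS replicates 1 to 3 and at 905, 404 and 347 CPM in those of SS-31H_CS. Adipocyte markers were at 31.8 to 41.9 CPM in CS and 34.2 to 43.6 CPM in SS-31H_CS. Both sums overlapped between the groups, and their part in the Ppargc1a values was not tested.

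Ppargc1b, the gene of PGC-1beta (ENSMUSG00000033871, chromosome 18, 61298136 to 61400431), was lower still, at 33, 20 and 23 counts in CS and 20, 24 and 25 counts in SS-31H_CS. In CPM this was 1.95, 1.15 and 1.42 against 1.18, 1.47 and 1.47, with CS replicate 1 highest and CS replicate 2 lowest. The log2 fold change, -0.13, had an SE of 0.32 (interval -0.87 to 0.61, adjusted p = 0.854). The sign turned without CS replicate 1, to 0.09. Pprc1, the gene of the third family member PRC, was the most abundant of the family here, with a mean of 6.58 FPKM. It was at 42.1, 48.9 and 59.7 CPM in CS and at 27.7, 32.4 and 38.6 CPM in SS-31H_CS, with no overlap (log2 fold change -0.61, SE 0.17, adjusted p = 0.141). DESeq2 gave Pprc1 an adjusted p of 0.0366; over 15 alternatives it ran from 0.0366 to 0.280.

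Nrf1, the gene of nuclear respiratory factor 1 (ENSMUSG00000058440, chromosome 6, 30047988 to 30153458), was among the steadiest. It was at 46.5, 48.0 and 48.9 CPM in CS and at 46.5, 42.0 and 41.8 CPM in SS-31H_CS. The first replicates of the groups met at the same level, and the other SS-31H_CS libraries lay below all of CS. The CS mean was 47.8 ± 1.21 CPM and the SS-31H_CS mean 43.4 ± 2.69 (log2 fold change -0.14, SE 0.10, interval -0.36 to 0.08, adjusted p = 0.474).

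Tfam and Polg, whose products maintain mitochondrial DNA, had differences of opposite sign and like size. Tfam (ENSMUSG00000003923, chromosome 10, 71225464 to 71238280) was at 29.1, 26.8 and 25.6 CPM in CS and at 28.5, 29.1 and 31.3 CPM in SS-31H_CS. The difference was 0.13 on the log2 scale (SE 0.11, interval -0.12 to 0.38, adjusted p = 0.564), and 0.08 without either CS replicate 3 or SS-31H_CS replicate 3. Polg (ENSMUSG00000039176, chromosome 7, 79446231 to 79466362) was at 113, 119 and 122 CPM in CS and at 115, 107 and 101 CPM in SS-31H_CS. CS replicate 3 was the lowest library for Tfam and the highest for Polg, and the groups overlapped in each gene. The log2 fold change of Polg was -0.13 (SE 0.10, interval -0.37 to 0.10, adjusted p = 0.518). Exons of the opposite-strand gene Fanci overlap 8.57% of the exon length of Polg.

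The promoters of Tfam and Polg are shown for the motif they share. Each held 1 match to the GABP (nuclear respiratory factor 2) motif CCGGAAGT, which 3.89% of the 32851 windows held. The windows searched for the other 5 genes did not hold it. That of Fundc1 and a second window of Nrf1 (30076071 to 30076370) lie inside the annotated gene. The RefSeq sequences (GRCm38.p6, minus strand, 5′ to 3′) lie at chr10:71238045-71238294 for Tfam and chr7:79466274-79466523 for Polg, with capitals for the GABP motif and for GCGTG on either strand.
Tfam: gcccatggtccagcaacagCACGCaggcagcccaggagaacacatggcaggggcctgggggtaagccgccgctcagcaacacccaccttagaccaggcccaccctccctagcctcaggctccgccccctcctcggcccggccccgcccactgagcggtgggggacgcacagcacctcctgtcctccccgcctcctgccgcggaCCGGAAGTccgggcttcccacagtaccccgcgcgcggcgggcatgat
Polg: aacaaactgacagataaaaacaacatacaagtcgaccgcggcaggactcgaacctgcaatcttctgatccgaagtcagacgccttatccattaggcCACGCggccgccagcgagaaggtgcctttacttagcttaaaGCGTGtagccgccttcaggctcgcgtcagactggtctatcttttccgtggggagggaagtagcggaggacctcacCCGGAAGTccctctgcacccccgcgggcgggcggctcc
The GABP match began at position -47 from the RefSeq start of Tfam and at -38 from that of Polg. Both matches lie inside the annotated genes, which reach 71238280 (Tfam) and 79466362 (Polg) on the minus strand. The sequences shown therefore include bases of the annotated genes.

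**Figure D3:**
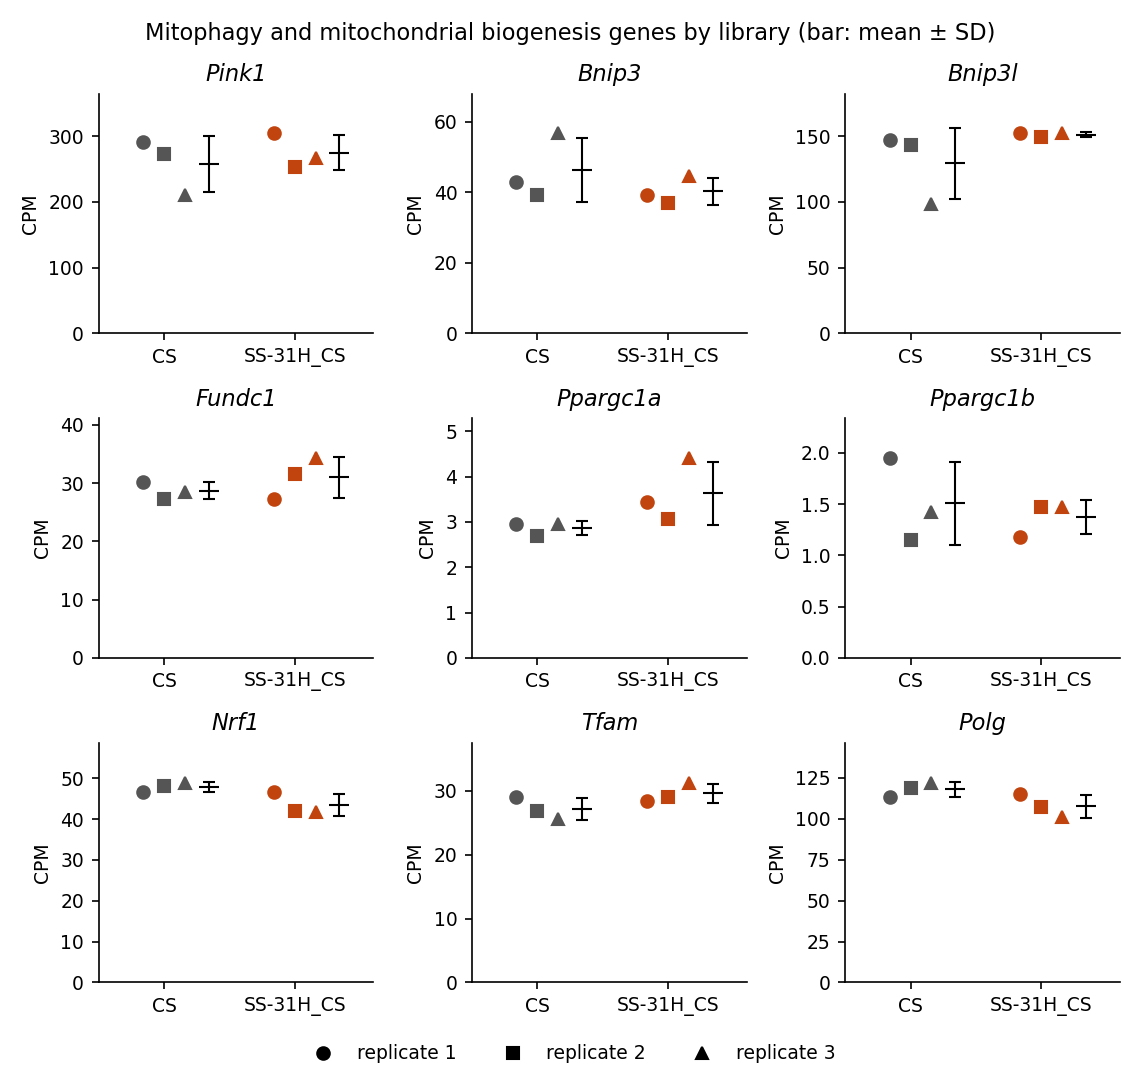
CPM of each gene in each library (points, replicate by shape) with the mean ± SD of the 3 libraries of a group, each axis starting at 0. The groups are separate only for Bnip3l and Ppargc1a.

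Across the 9 genes, 5 log2 fold changes were positive and 4 negative, with a median of 0.09 against 0.01 over all tested genes. By edgeR's test 0 of the 9 passed at an adjusted p under 0.05, where 0.153% of all tested genes did, and 0 passed at an unadjusted p under 0.05, where 18.2% did (9.93% higher and 8.23% lower). DESeq2 and limma voom called 0 of the 9 as well. The groups did not overlap for 2 of the 9, Bnip3l and Ppargc1a, beside 26.1% of all tested genes. The 95% interval of the fold change, taken gene by gene, lay between 0.5 and 2 for all 9 genes and between 0.667 and 1.5 for 6 of them, the exceptions being Bnip3l, Ppargc1a and Ppargc1b. Without CS replicate 3 the median of the 9 was -0.04. Over single libraries left out, the value of Pink1 ran from -0.04 to 0.18, that of Bnip3 from -0.31 to -0.04 and that of Bnip3l from 0.05 to 0.32. The corresponding ranges were 0.17 to 0.45 for Ppargc1a, -0.30 to 0.09 for Ppargc1b and -0.20 to -0.12 for Nrf1.

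**Figure D4:**
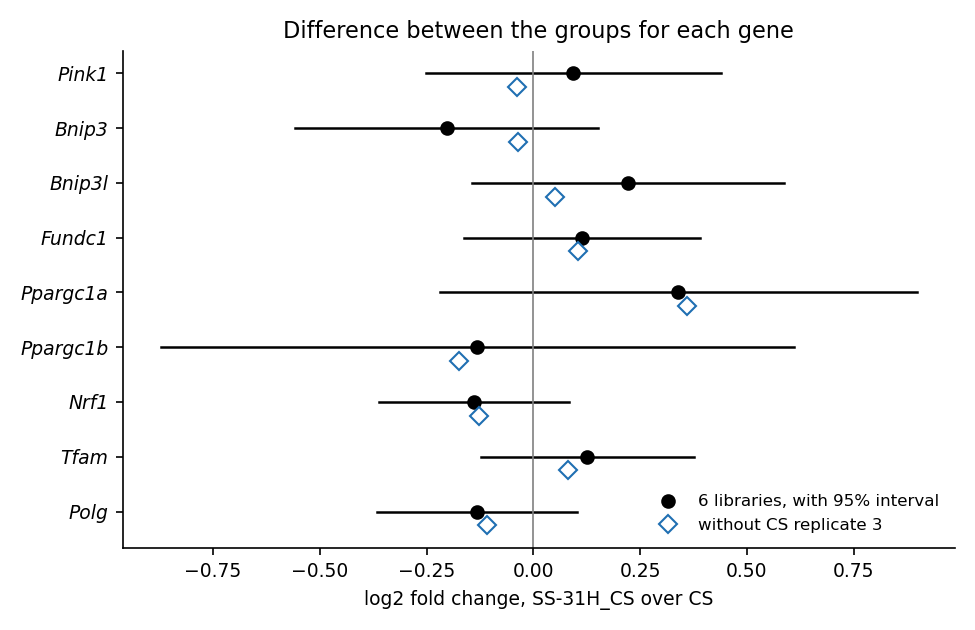
Log2 fold change (SS-31H_CS over CS) of each gene with its 95% interval from all 6 libraries (filled) and its value without CS replicate 3 (open). Every interval spans 0, and without that library Pink1 and Bnip3 lie at -0.04 and Bnip3l at 0.05.

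Among the wider lists, 0 genes passed at an adjusted p under 0.05 in any of the 7 (7 by DESeq2). At an unadjusted p under 0.05 by edgeR's test, 9.93% of all tested genes were higher and 8.23% lower. Of 29 other mitophagy genes, 2 were higher and 2 lower at an unadjusted p under 0.05 (median -0.04). Bcl2l13, a further LC3-binding receptor, was at 41.5, 44.1 and 46.1 CPM in CS and at 35.1, 34.2 and 31.1 CPM in SS-31H_CS (log2 fold change -0.39, adjusted p = 0.134). Calcoco2, the gene of the autophagy receptor NDP52, had only 3 to 6 counts in CS and 10 to 19 in SS-31H_CS (1.63, adjusted p = 0.149), and the kinase gene Tbk1 had -0.28 (adjusted p = 0.258).

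Of 21 tested biogenesis regulators, 1 was higher and 1 lower at an unadjusted p under 0.05, with a median of 0.02: Mef2c (0.55, adjusted p = 0.249; 0.32 without CS replicate 3) and Pprc1. Esrrg, the gene of an estrogen-related receptor that partners PGC-1alpha, had 1.08 (adjusted p = 0.364) on 7 to 49 counts per library, with 0.58 without SS-31H_CS replicate 3 and 1.66 without CS replicate 2. Of 21 other genes for mitochondrial DNA maintenance, 15 had a positive log2 fold change (median 0.16), with 2 higher and 0 lower at an unadjusted p under 0.05. The nuclease-helicase gene Dna2 was at 11.3, 10.7 and 12.0 CPM in CS and at 16.1, 15.6 and 14.8 CPM in SS-31H_CS, with no overlap (0.45, adjusted p = 0.171). The exonuclease gene Mgme1 had 0.51 (adjusted p = 0.258; 0.33 without CS replicate 3). Polg2, the gene of the accessory subunit of the polymerase, was at 7.67, 7.85 and 5.25 CPM in CS and at 11.5, 9.84 and 8.12 CPM in SS-31H_CS (0.50, adjusted p = 0.289; 0.34 without CS replicate 3), opposite in sign to the -0.13 of the catalytic subunit gene Polg.

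The products of these programmes were also measured. Of 21 tested nuclear genes of the respiratory chain, 16 had a negative log2 fold change. At an unadjusted p under 0.05, 1 was lower, Atp5a1 (-0.57, adjusted p = 0.217). It had only 100 to 196 counts per library, where Atp5b had 8048 to 12504. Cox6c had 0.22 (adjusted p = 0.322) and Atp5b -0.29 (adjusted p = 0.369, and -0.12 without CS replicate 3). The median of the 21 was -0.10, and 0.02 without CS replicate 3, in which 15 of the 21 were at their highest. All 11 tested mRNAs encoded in mitochondrial DNA had a positive log2 fold change (median 0.28), 0 of them at an unadjusted p under 0.05 by edgeR's test. Those with the lowest p were mt-Co1 (0.33, adjusted p = 0.377), mt-Nd4 (0.33, adjusted p = 0.419) and mt-Nd2 (0.35, adjusted p = 0.458). These mRNAs, 13 in all, took 1.40%, 1.29% and 1.34% of counts in CS and 1.43%, 1.58% and 2.15% in SS-31H_CS. Every SS-31H_CS library lay above CS, by 0.378 percentage points on average (exact permutation test, two-sided p = 0.1, the smallest that 3 against 3 allows). Without SS-31H_CS replicate 3 the difference was 0.164 points and the median of the list 0.06, with mt-Co1 at 0.15, mt-Nd4 at 0.07 and mt-Nd2 at 0.03. Summed ciliated cell markers were at 535, 501 and 357 CPM in CS replicates 1 to 3 and at 683, 743 and 1030 CPM in those of SS-31H_CS. They rose with the share over SS-31H_CS but not over CS, where replicate 3 had the lowest sum and replicate 2 the lowest share. Club cell markers were highest in SS-31H_CS replicate 3 (64200 CPM). From SS-31H_CS replicate 1 to 3, erythroid markers also rose (836, 949 and 957 CPM). Alveolar macrophage (1070, 970 and 675 CPM), neutrophil (3430, 1330 and 479 CPM) and cardiac muscle markers (905, 404 and 347 CPM) fell. The part of these cell types in the share was not tested.

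Genes that share regulators with the mitophagy receptors were set beside them. Of the hypoxia-inducible list (18 genes in 19 annotated loci, Aldoa matching 2), 6 were lower and 1 higher at an unadjusted p under 0.05, with a median of -0.07. The shares of all tested genes were 8.23% and 9.93%. Adm, the adrenomedullin gene, was at 10.3, 9.28 and 32.8 CPM in CS and at 4.55, 5.44 and 3.29 CPM in SS-31H_CS (-1.98, adjusted p = 0.128; -1.15 without CS replicate 3). The hexokinase gene Hk2 had -0.80 (adjusted p = 0.163; -0.44 without CS replicate 3), and the glucose transporter gene Slc2a1 had -0.42 (adjusted p = 0.153). Like Bnip3, these 3 genes were highest in CS replicate 3, as were 10 of the 19 loci (52.6%, against 27.5% of all tested genes). Another 6 of the 19, including Vegfa, Egln3 and Pdk1, were lowest there (31.6%, against 28.7% of all tested genes), so the list did not move as a whole in that library. The 3 named here were chosen after their values were seen. Whether hypoxia played a part in the Bnip3 values was not tested.

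FOXO transcription factors can drive Bnip3 and other autophagy genes. The Bnip3 window searched held no match to the FOXO motif. Of 13 tested FOXO genes and FOXO-dependent genes, 6 were lower and 1 higher at an unadjusted p under 0.05, with a median of -0.26. The shares of all tested genes were 8.23% and 9.93%. The higher gene was Cdkn1b (0.45, adjusted p = 0.259). Ddit4 (-0.52), among the 6 lower and highest in CS replicate 3, is also counted in the hypoxia-inducible list, so the lists are not separate. CS replicate 3 was highest for 6 of the 13 (46.2%, against 27.5% of all tested genes) and lowest for 2 (15.4%, against 28.7%). Foxo3, Cdkn1a and Klf9, given next, had the lowest p of the list, so they were chosen after their values were seen. Foxo3 itself was at 167, 178 and 166 CPM in CS and at 130, 107 and 111 CPM in SS-31H_CS, with no overlap (-0.55, adjusted p = 0.0916). DESeq2 gave Foxo3 an adjusted p of 0.00199; over 15 alternatives it ran from 0.00199 to 0.282. Cdkn1a, a cell cycle inhibitor gene, was at 101, 134 and 436 CPM in CS and near 44 CPM in each SS-31H_CS library (-2.34, adjusted p = 0.0994). Without CS replicate 3 Cdkn1a had -1.41 and passed (adjusted p = 0.0241; 0.00311 to 0.287 over 15 alternatives). Klf9 had -0.62 (adjusted p = 0.120). Bnip3, by comparison, had -0.20 (adjusted p = 0.510), and -0.04 without CS replicate 3. Whether FOXO factors played a part in the Bnip3 values was not tested.

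**Figure D5:**
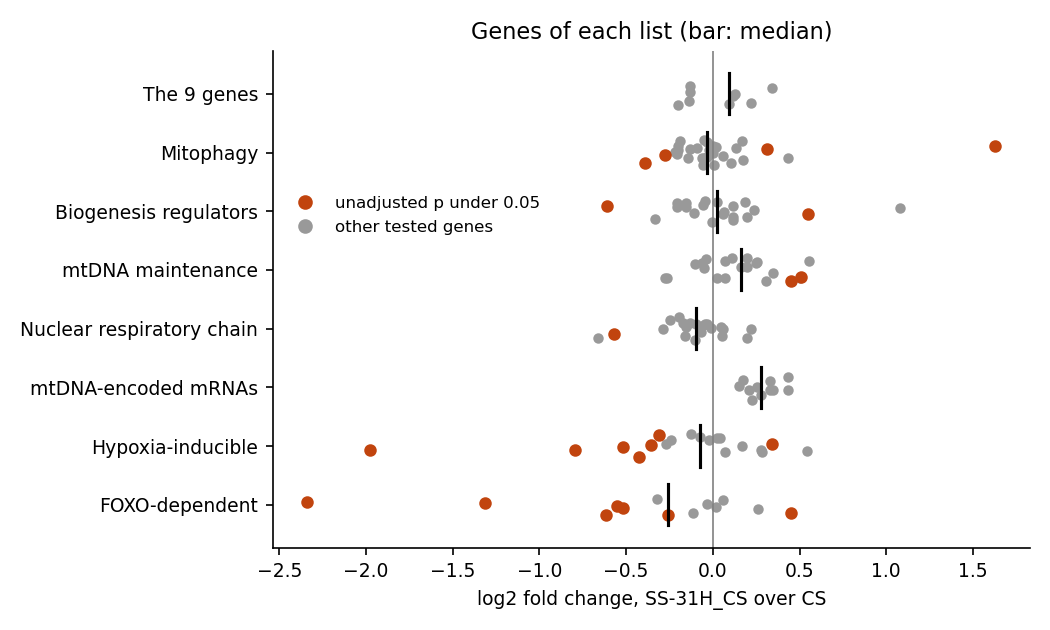
Log2 fold change (SS-31H_CS over CS) of each tested gene in the 9-gene set and the 7 wider lists, with black bars for the medians and colour for an unadjusted p under 0.05. The 9 genes lie between -0.20 and 0.34, and the genes farthest below 0 are Cdkn1a and Adm.

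Of the 9, the log2 CPM of Bnip3l, Ppargc1b and Ppargc1a varied most over the 6 libraries (SD 0.25, 0.25 and 0.24). For these, the genes of most similar pattern were found among 10854 genes whose mean reached 10 CPM, by the mean absolute difference of centred log2 CPM over the 6 libraries. Closest to Bnip3l were Ptch1 (0.0255), Zfp961 (0.0299) and Prkcb (0.0350). Closest to Ppargc1a were Dzip1l (0.0335), Rhbdd2 (0.0382) and Mien1 (0.0417), and closest to Ppargc1b were Ltc4s (0.0877), Pdik1l (0.0929) and Zkscan8 (0.0979), a poorer likeness in a gene with 20 to 33 counts.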

How the data were processed

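The files deposited by the authors hold read counts for each Ensembl gene, with no normalization, and a companion table of FPKM. Per the submitters' processing notes, cutadapt 1.9.1, HISAT2 2.0.1, HTSeq 0.6.1 and GRCm38 were used; annotation release, strand setting and filters are not given in the sources used here. FPKM divided by counts followed library totals to within 0.242% over 3310 genes, so the deposited FPKM carry no other scaling between libraries.

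Symbols and coordinates came from GENCODE M21 by identifier (179 genes unmatched). Counts were tested across all genes with edgeR 4.0.16 (R 4.3.3, TMM, filterByExpr with minimum count 10 and total 15, quasi-likelihood test, Benjamini-Hochberg adjustment, two-sided). The same fit was run on counts simulated from its own estimates. That simulation held no deviating library such as CS replicate 3, so it does not measure power in these data. "Changed" means an adjusted p under 0.05; intervals are 95%. Centred log2 CPM used a prior count of 2. The members and lists were chosen with earlier results of these data known. Named genes are the 9 members, the 3 of lowest p in each of 7 lists, and the 3 most similar in pattern to each of the 3 most variable members. Alternatives were RLE factors, library size alone, no filter, a filter at 1 CPM in 3 libraries, DESeq2 1.42.0, limma 3.58.1 voom, log2(FPKM + 1) and log2(FPKM + 0.1) at a mean FPKM of at least 0.5, a replicate block, and leaving out each library. Promoters came from RefSeq (GRCm38.p6).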

Additional observations from a re-analysis of the deposited data

How the results depend on the processing

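None of the 9 genes passed at an adjusted p under 0.05 in any of 15 alternatives (lowest 0.330, for Nrf1 without SS-31H_CS replicate 1; 0 at an unadjusted p under 0.05 in each). Of 131 alternative values of the 9 genes, 129 kept their sign. The exceptions were Pink1, from -0.039 (without CS replicate 3) to 0.18 over single libraries left out, and Ppargc1b, from -0.30 to 0.091 (without CS replicate 1). Ppargc1a and Ppargc1b fell under the FPKM minimum and have no FPKM-based value. With RLE factors the groups did not overlap for 3 of the 9 genes. Over all genes, 26 passed; the number was 12 with library size alone, 648 without a low-count filter, 941 by DESeq2, 6 by voom, 6 with log2(FPKM + 1), 5 with log2(FPKM + 0.1), and 1 to 15 with single libraries left out (15 without CS replicate 3). Of the wider lists' genes, 7 passed without a low-count filter and 7 by DESeq2, the same genes (Hk2, Pdk4, Cdkn1a, Adm, Klf9, Foxo3 and Pprc1), and 0 to 1 with single libraries left out, Cdkn1a without CS replicate 3. The cause of these differences in number was not tested. Same-numbered libraries did not deviate together (r over 16965 genes 0.0072, 0.0363 and -0.0571, against -0.1027 to 0.0712 for those of different number). These values gave no sign of pairing by number, but with 3 libraries per group they cannot exclude it. With the number as a replicate block, 0 of all genes passed and 0 of the 9, whose log2 fold changes ran from -0.19 (Bnip3) to 0.33 (Ppargc1a). Leaving out 1 library assumes that the remaining 2 of its group vary as the other group does. Depth limits Ppargc1a and Ppargc1b, at 20 to 75 counts per library.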
